A study of Arabidopsis thaliana with 6 samples.

Results

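The mTERF proteins of Arabidopsis thaliana, relatives of mitochondrial transcription termination factors that are encoded in the nucleus, were examined at the transcript level in leaves of the mutant pam48. The labels also name it mterf6-1, after MTERF6 (AT4G38160) of the same family. Besides MTERF6, 34 nuclear mTERF loci were considered. A locus was measured where a probe set of the array lists it as its single gene, and 18 of the 34 met this rule. They stand among 22746 tested probe sets of the whole array, and each measured locus had 1 such probe set.

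The study compared leaves of the wild-type accession Col-0 with leaves of pam48 in the Col-0 background, 3 biological replicates each, 1 Affymetrix microarray per replicate. Plants grew on soil in a greenhouse in long days (16 h light, 8 h dark) at a photon flux near 120 µmol m-2 s-1, and leaves of matched age were taken from rosettes with 8 leaves. pam48 is a single mutant line in the labels, which state neither the nature of the lesion nor the number of plants per replicate. Values are log2 summaries made by the authors with RMA, and a difference is the mean of pam48 minus the mean of wild type on that scale.

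Proteins of the mTERF family bind nucleic acids through repeated helical motifs and are imported into plastids or mitochondria, where members take part in transcription, transcription termination, intron splicing and ribosome assembly. In animals the family has few members, whereas flowering plants have many. Several plant members are needed for chloroplast development or embryogenesis, and others alter responses to salt, heat or abscisic acid when lost. Arabidopsis also carries a tandem cluster of closely related mTERF genes on chromosome 1, whose products are mostly predicted to enter mitochondria.

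None of the 18 measured mTERF transcripts passed the threshold of a limma adjusted p under 0.05, which 0.778% of all probe sets passed. The largest differences were a lower level of MTERF10 in pam48, 2.91-fold, and a higher level of AT1G78930, 2.46-fold. With the replicate number of the labels as a block in the fit, both passed, MTERF10 as lower and AT1G78930 as higher in pam48. These were 2 of 18 members, against 1.81% of all probe sets called in that fit. The other 16 members differed by less than 0.5 on the log2 scale, as did 88.6% of all probe sets.

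**Figure D1:**
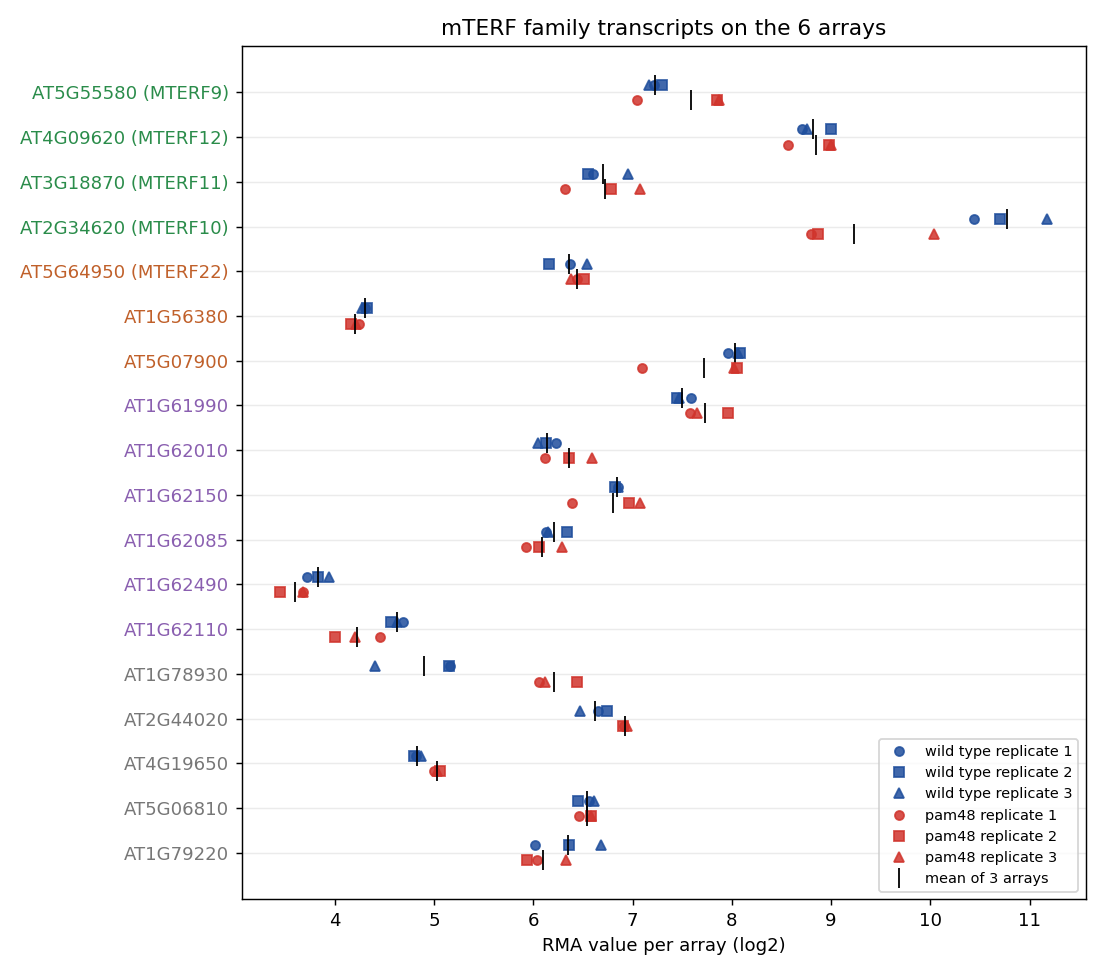
RMA values (log2, horizontal axis) of the 18 measured mTERF loci on each of 3 wild-type arrays (blue) and 3 pam48 arrays (red), with symbols for the replicate number and a black tick at the mean of 3 arrays. Locus names are green for plastid members, orange and purple for mitochondrial members outside and inside the chromosome 1 cluster, and grey for loci with no organelle assigned. The genotypes stand well apart in AT2G34620 (MTERF10) and AT1G78930 and overlap in most others.

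The 18 measured loci were divided by where their products are known or predicted to work. Plastid proteins are encoded by 10 of the 34 loci, of which 4 were measured: MTERF9, MTERF10, MTERF11 and MTERF12. Mitochondrial proteins, shown or predicted, are encoded by 18 loci, of which 9 were measured, 6 of them among the 10 loci of the chromosome 1 cluster. For 6 loci no organelle was assigned, and 5 of these were measured. The 16 loci without such a probe set were not analysed here. Among plastid members these were MTERF1 (AT2G03050, SOLDAT10), MTERF2 (AT2G21710), MTERF3 (AT2G36000), MTERF4 (AT4G02990, BSM, a factor in splicing of plastid introns), MTERF5 (AT4G14605, MDA1) and MTERF8 (AT5G54180, PTAC15). Among mitochondrial members they were MTERF15 (AT1G74120, a splicing factor of nad2), SHOT1 (AT3G60400, whose loss raises heat tolerance), AT1G21150, AT3G46950, AT5G23930 and the cluster genes AT1G61960, AT1G61970, AT1G61980 and AT1G62120. The last was AT5G45113, with no organelle assigned. The annotation used here pairs 0 probe sets with MTERF6 itself, so the level of the mutated gene was not analysed here. This annotation lists no gene for 8730 tested probe sets, and some of them may read MTERF6 or the 16 loci.

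The arrays of both genotypes were alike in overall signal, with medians between 6.38 and 6.55 and correlations between 0.952 and 0.992. The 177 probe sets called over the whole array comprised 136 with higher values in pam48 (0.598% of those tested) and 41 with lower values (0.180%), and the blocked fit called 412. The number of calls lay between 1 and 291 when 1 array was left out, with 1 call when any single wild-type array was dropped, and with 291, 12 and 39 calls when pam48 replicate 1, 2 or 3 was dropped. Of 17 marker genes listed for leaf and other tissues 4 were measured. RCA, the rubisco activase gene of photosynthetic cells, was near the top of the scale on all 6 arrays, between 14.15 and 14.37. The root gene PYK10 varied between 5.19 and 9.74 and was high on wild type replicate 1 (8.51), pam48 replicate 2 (9.74) and pam48 replicate 3 (7.29), so that its range did not follow the genotype. The guard cell gene FMA was at 5.70 to 6.08 in wild type and 5.47 to 5.55 in pam48, and the shoot apex gene CLV3 at 3.45 to 3.70 and 3.20 to 3.34. Both were lower in pam48 without overlap, as were 11.4% of all probe sets, and neither was called. Their unadjusted limma p was 0.0160 and 0.0291, where 6.67% of all probe sets were lower with such a p under 0.05. In RCA and PYK10 the genotypes overlapped. CLV3 was among the dimmest probe sets of the array, at percentile 6.8 of their means. The part of these markers in the results was not tested, and fewer cells of a type and less RNA per cell cannot be told apart in whole leaves.

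MTERF10 (AT2G34620) encodes a plastid mTERF protein that has been linked to salt stress. Its values were 10.44, 10.71 and 11.18 on wild type replicates 1, 2 and 3, and 8.80, 8.87 and 10.04 on pam48 replicates 1, 2 and 3. All pam48 arrays lay below all wild-type arrays, with pam48 replicate 3 the closest to them. The means were 10.78 ± 0.37 for wild type and 9.23 ± 0.70 for pam48 (SD, n = 3). The difference was −1.54 ± 0.37 (SE; 95% interval −2.42 to −0.66), with a limma adjusted p of 0.144.

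Within each replicate number MTERF10 was lower in pam48, by −1.64 for number 1, −1.84 for number 2 and −1.14 for number 3. Wild type and mutant were both highest at number 3, so that the SE was 0.17 with the block in place of 0.37 without it. In the blocked fit MTERF10 fell in pam48 (limma adjusted p = 0.0290). The adjusted p lay between 0.129 and 0.154 under the other settings that kept all arrays and between 0.0607 and 0.405 when 1 array was left out without the block. The difference lay between −1.94 and −1.32 when 1 array was left out and was −1.21 with array weights.

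MTERF11 (AT3G18870) encodes a further plastid member studied for salt stress. It measured 6.60, 6.55 and 6.96 on the wild-type arrays and 6.31, 6.78 and 7.08 on the pam48 arrays, so that the genotypes overlapped fully. Its difference was 0.022 ± 0.22 (SE, limma adjusted p = 0.979), with a 95% interval from −0.50 to 0.55.

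MTERF12 (AT4G09620), also a plastid protein, measured 8.71, 9.00 and 8.75 in wild type and 8.56, 8.98 and 9.00 in pam48. The ranges overlapped here as well. The difference was 0.028 ± 0.16 (SE, limma adjusted p = 0.963), with a 95% interval from −0.35 to 0.41. The signs of MTERF11 and MTERF12 turned with median centring and in each gene when any of 4 arrays was left out, and that of MTERF11 also with quantile normalization.

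MTERF9 (AT5G55580, TWR1) encodes a plastid protein that takes part in ribosome assembly. It was at 7.22, 7.30 and 7.17 in wild type, a narrow range, and at 7.04, 7.85 and 7.87 in pam48. In pam48, replicates 2 and 3 lay above all wild-type arrays and replicate 1 below them. The difference was 0.36 ± 0.23 (SE, limma adjusted p = 0.559), and without pam48 replicate 1 it was 0.63 (limma adjusted p = 0.0616), still not called.

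**Figure D2:**
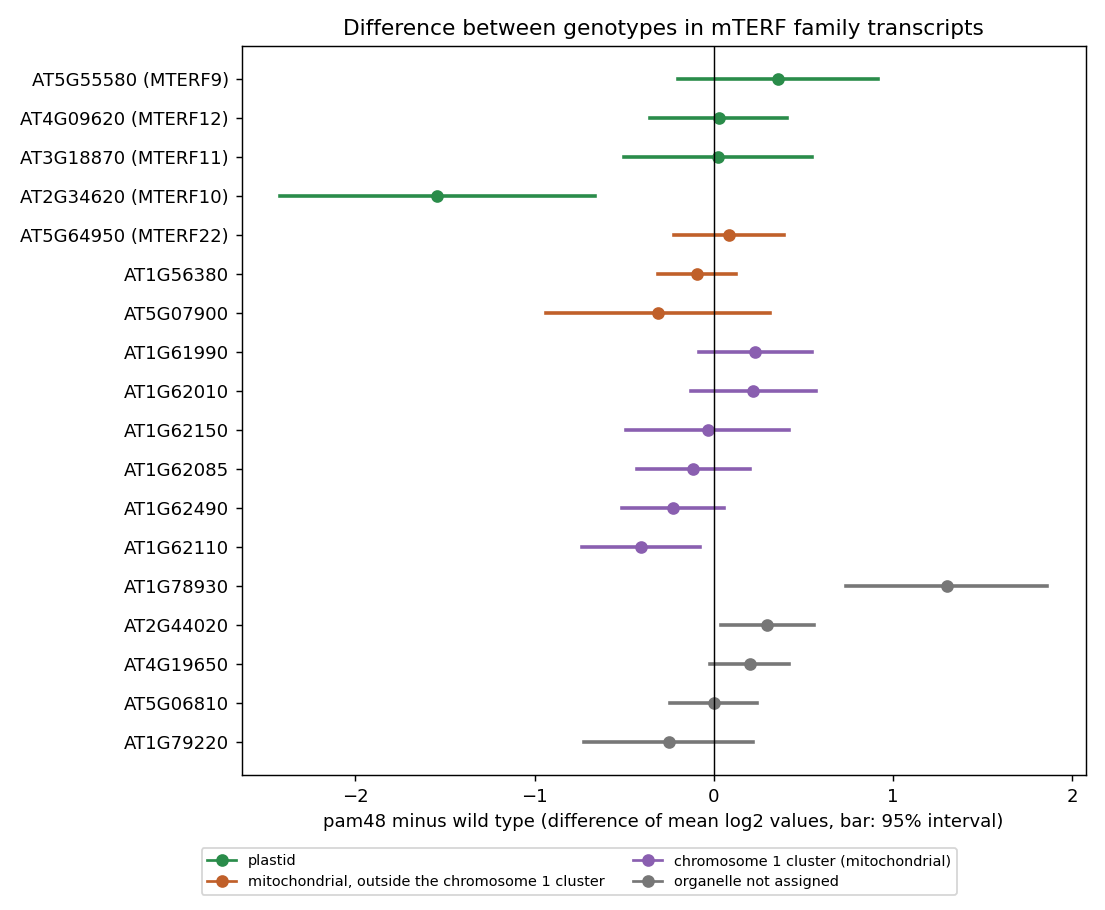
Difference between genotypes (pam48 minus wild type, log2, horizontal axis) of the 18 measured mTERF loci as points with 95% intervals from limma, coloured by organelle class. The intervals of MTERF10, AT1G62110, AT1G78930 and AT2G44020 leave out 0 before adjustment, and no locus had an adjusted p under 0.05 in this fit.

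As a class, the 4 plastid members had a median difference of 0.025, against −0.028 over all probe sets. The sign of the plastid median turned with quantile normalization (−0.0042) and median centring (−0.029), and it lay between −0.10 and 0.20 when 1 array was left out. The averages of their differences from the wild-type means were −0.70, −0.26 and 0.11 on pam48 replicates 1, 2 and 3. Without MTERF10, left out after its value was seen, the other 3 averaged −0.28, 0.29 and 0.40. Against the wild-type array of the same number, the class averages were −0.56, −0.27 and −0.019 for numbers 1, 2 and 3, and without MTERF10 they were −0.20, 0.25 and 0.35. The sign of the class average therefore depended on MTERF10 at numbers 2 and 3, while number 1 was the lowest either way. In the 9 mitochondrial members the averages were −0.21, −0.034 and 0.030 on the same arrays and −0.21, −0.020 and 0.017 within the numbers. Their median difference was −0.093, and it lay between −0.17 and 0.0017 when 1 array was left out. Members of a class are not replicates, so the classes were not tested against each other. Both class medians lay near 0. The mean differences were −0.28 for the plastid members, 0.14 for these without MTERF10, and −0.072 for the mitochondrial members. Between replicate arrays the class medians had a spread (SD) of 0.26 for plastid and 0.11 for mitochondrial members. This spread is not the error of a median difference and served as no test.

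Of the mitochondrial loci outside the cluster, MTERF22 (AT5G64950), which encodes a mitochondrial member of the family, lay between 6.16 and 6.54 in wild type and between 6.38 and 6.51 in pam48. Its difference was 0.086 ± 0.13 (SE, limma adjusted p = 0.809). AT5G07900 lay between 7.96 and 8.08 in wild type, and in pam48 at 7.10 on replicate 1, 8.05 on replicate 2 and 8.02 on replicate 3. Its difference of −0.31 ± 0.26 (SE, limma adjusted p = 0.657) came from that replicate, as it was 0.0017 without it.

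AT1G56380, the third of these loci, was at 4.30, 4.32 and 4.28 in wild type and at 4.24, 4.16 and 4.22 in pam48. The arrays of each genotype lay close together, and the genotypes did not overlap although they differed by only −0.093 ± 0.091 (SE, limma adjusted p = 0.707). The SE exceeds what these arrays alone would give because limma moderates the variance of a gene towards that of all probe sets. The probe set was among the dimmest 40% of the array. As background, RMA values of dim probe sets understate differences.

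The chromosome 1 cluster comprised 10 loci within a stretch of 56 protein-coding genes in the gene table, the last of them, AT1G62490, apart from the others by 36 genes. Its 6 measured loci had differences of both signs. AT1G61990 and AT1G62010, separated by 1 gene, had positive differences, and AT1G62085, AT1G62110, AT1G62150 and AT1G62490 had negative ones. Limma called 0 of the 6, against 0.778% of all probe sets, and 1 had an unadjusted p under 0.05, against 13.5%. The median difference was −0.074, and its sign was not stable, as it was 0.012 with array weights and lay between −0.19 and 0.071 when 1 array was left out.

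The largest positive difference of the cluster was that of AT1G61990. It measured 7.58, 7.44 and 7.46 in wild type and 7.58, 7.96 and 7.65 in pam48, a difference of 0.23 ± 0.13 (SE, limma adjusted p = 0.506). AT1G62010 measured 6.23, 6.13 and 6.04 in wild type and 6.11, 6.36 and 6.59 in pam48, a difference of 0.22 ± 0.15 (SE, limma adjusted p = 0.566). At replicate number 1 the genotypes were level in AT1G61990, and pam48 was lower by −0.11 in AT1G62010. The higher pam48 values of both genes came from replicates 2 and 3.

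AT1G62110 had the largest negative difference of the cluster. It measured 4.69, 4.57 and 4.63 in wild type and 4.45, 4.005 and 4.20 in pam48, with every pam48 array below every wild-type array. The difference was −0.41 ± 0.14 (SE, unadjusted p = 0.0232, limma adjusted p = 0.273), or 1.32-fold. The probe set was among the dimmest 40% of the array.

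AT1G62490 measured 3.72, 3.84 and 3.94 in wild type and 3.69, 3.45 and 3.68 in pam48. The genotypes did not overlap, by a margin of hundredths on the log2 scale, and the difference was −0.23 ± 0.12 (SE, limma adjusted p = 0.465). It too was among the dimmest 40% of probe sets, so that the loci of the cluster in which the genotypes stood apart were its dim ones.

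AT1G62085 measured 6.13, 6.34 and 6.15 in wild type and 5.93, 6.06 and 6.29 in pam48, overlapping ranges with a difference of −0.11 ± 0.13 (SE, limma adjusted p = 0.750). AT1G62150 varied least of all 18 members in wild type, at 6.85, 6.82 and 6.85, while the pam48 arrays spread around it at 6.39, 6.96 and 7.08. The difference of −0.034 ± 0.19 (SE, limma adjusted p = 0.962) became 0.18 without pam48 replicate 1. The genes of the cluster are similar in sequence. None of the 18 probe sets carries a name ending that marks probes shared among transcripts, but cross-hybridization between the copies was not tested, and their values may share signal.

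**Figure D3:**
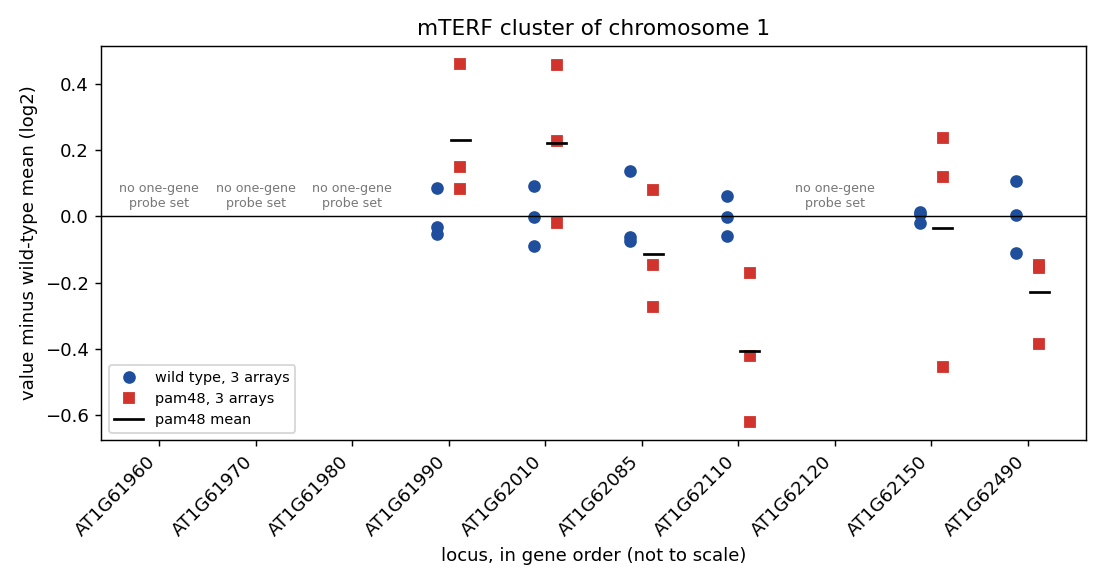
Values of the chromosome 1 cluster loci minus the wild-type mean of each locus (log2, vertical axis), in gene order with even spacing, for 3 wild-type arrays (blue circles) and 3 pam48 arrays (red squares), with a black line at the pam48 mean. The pam48 means are above 0 at AT1G61990 and AT1G62010 and below 0 at the other measured loci, where AT1G62110 and AT1G62490 show no overlap.

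Among the 5 measured loci with no organelle assigned, AT1G78930 had the largest positive difference of the family. It measured 5.16, 5.15 and 4.40 in wild type and 6.05, 6.44 and 6.12 in pam48. Every pam48 array lay above every wild-type array, and wild type replicate 3 was the lowest of all. The means were 4.90 ± 0.43 for wild type and 6.20 ± 0.21 for pam48 (SD, n = 3).

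The difference of AT1G78930 was 1.30 ± 0.23 (SE; 95% interval 0.74 to 1.86), with a limma adjusted p of 0.0779. Within replicate numbers 1, 2 and 3 it was 0.89, 1.29 and 1.72. In the blocked fit the SE was 0.18 and AT1G78930 rose in pam48 (limma adjusted p = 0.0417). Under the other settings that kept all arrays the adjusted p lay between 0.0562 and 0.0763, and it lay between 0.0707 and 0.215 when 1 array was left out without the block. By its mean over all arrays AT1G78930 stood at percentile 40.7, just above the cut for dim probe sets. Its wild-type mean of 4.90 was below the mean of AT4G19650 over all arrays, 4.93, at percentile 34.2. The fit without dim probe sets thus kept AT1G78930 through its pam48 values and does not test its dimness in wild type. The smallest difference of the fits with 1 array left out, 1.05, came without wild type replicate 3.

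AT2G44020 measured 6.66, 6.74 and 6.47 in wild type and 6.91, 6.91 and 6.94 in pam48. The pam48 arrays were nearly equal and all above wild type. The difference was 0.30 ± 0.11 (SE, unadjusted p = 0.0304, limma adjusted p = 0.304). With the block its unadjusted p was 0.0547.

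AT4G19650 likewise showed no overlap, with 4.82, 4.80 and 4.87 in wild type and 5.00, 5.06 and 5.03 in pam48. The difference was small, 0.20 ± 0.092 (SE, limma adjusted p = 0.417), and the probe set was among the dimmest 40%. AT1G79220 had the opposite sign and wide, overlapping ranges, 6.01, 6.36 and 6.68 in wild type and 6.04, 5.94 and 6.33 in pam48, with a difference of −0.25 ± 0.20 (SE, limma adjusted p = 0.635). AT5G06810 had a difference of 0.0004 ± 0.10 (SE, limma adjusted p = 0.999), with wild type between 6.45 and 6.61 and pam48 between 6.46 and 6.58.

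Over the whole family, 10 of the 18 members had positive differences, as did 44.7% of all probe sets, and 8 had negative ones. The median was 0.011. Limma called 0 of 18, and 4 had an unadjusted p under 0.05, which are 22.2% of the members, against 13.5% of all probe sets. The 2 with higher values in pam48 were AT1G78930 and AT2G44020 (background 6.79%), and the 2 with lower values were MTERF10 and AT1G62110 (background 6.67%). The genotypes did not overlap in 7 of 18 members (38.9%), against 20.5% of all probe sets. pam48 was higher in 3 of them (background 9.14%) and lower in 4 (background 11.4%), and 4 of the 7 were among the dimmest 40%. These shares were not tested, since the members were chosen with results of these arrays known. Of the 18 intervals, 16 lay within 1 log2 unit on both sides of 0, as did 84.7% of all intervals. For these 16 members a 2-fold change of the RMA value lay outside the 95% interval. Of the 16, 4 were among the dimmest 40%, where RMA values understate differences, so their intervals do not bound the transcript change.

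**Figure D4:**
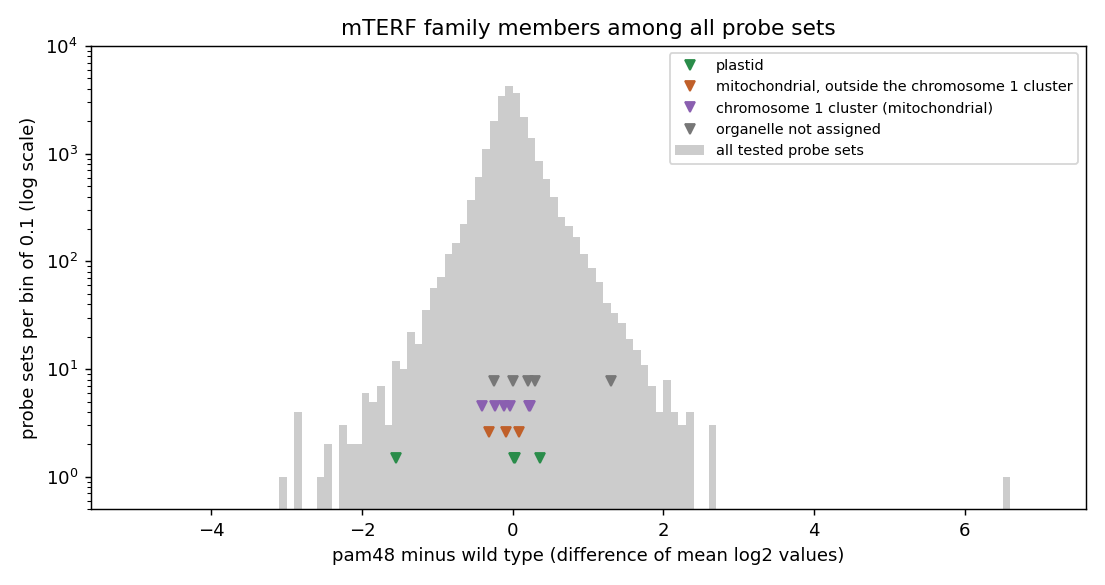
Number of probe sets per bin of 0.1 (vertical log axis) against the difference pam48 minus wild type (log2) for all 22746 tested probe sets (grey), with triangles at the differences of the 18 mTERF loci by class, at arbitrary heights. MTERF10 at −1.54 and AT1G78930 at 1.30 stand apart from the other members, which lie between −0.41 and 0.36.

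The members also differed in how the replicates varied. The SD had a median of 0.10 in wild type, with a range of 0.019 to 0.43, and of 0.20 in pam48, with a range of 0.017 to 0.70. It was larger in pam48 in 12 of 18 members, as in 66.5% of all probe sets. pam48 replicate 1 was the lowest of the pam48 arrays in 12 members, against 39% of all probe sets, and pam48 replicate 3 the highest in 9, against 31.6%. Array weights, estimated over all probe sets, were lowest for pam48 replicate 1, at 0.37, and 1.40 for pam48 replicate 3. Within replicate numbers, the difference had the same sign at all 3 numbers in 8 members. It was positive at all of them in 3 members (AT1G78930, AT2G44020 and AT4G19650), against 17.2% of all probe sets, and negative in 5 (MTERF10, AT1G62110, AT1G62490, AT5G07900 and AT1G56380), against 23.4%.

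**Figure D5:**
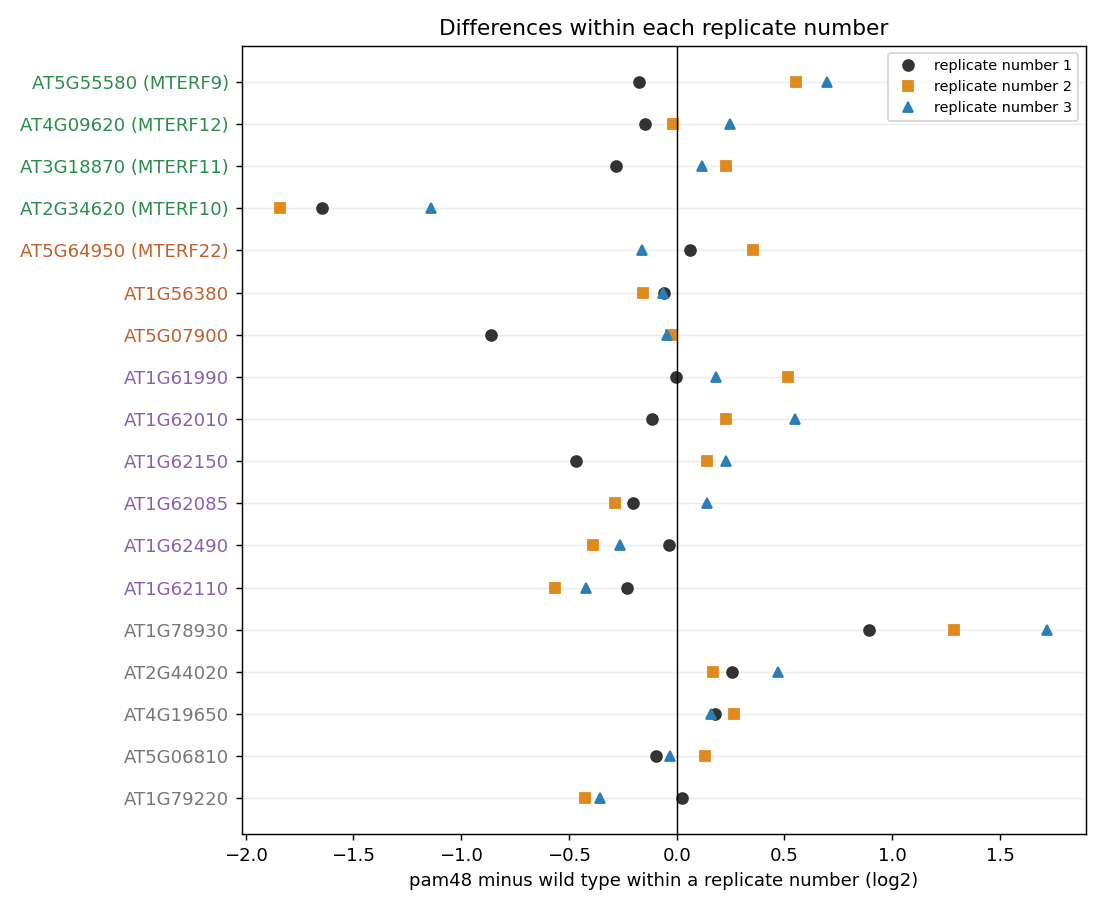
Difference pam48 minus wild type (log2, horizontal axis) within replicate number 1 (black circles), 2 (orange squares) and 3 (blue triangles) for the 18 measured mTERF loci, with names coloured by class as in the plot of values by array. All 3 symbols lie left of 0 for MTERF10 and right of 0 for AT1G78930, and number 1 is the lowest in MTERF9, MTERF11, MTERF12 and AT5G07900.

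Genes next to the members were also read. Within 5 protein-coding loci on each side, between 1 and 7 other genes were measured per member, some of them shared between cluster members. Limma called 0 of these neighbours, against 0.778% of all probe sets. With so few genes, a count of 0 is near that share. Around MTERF10, 4 were measured, with differences between −0.37 and 0.23, and around AT1G78930 there was 1, at 0.49 (limma adjusted p = 0.588).

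Other parts of the organelle transcription machinery could hardly be followed with this annotation. Of 32 genes listed for phage-type polymerases, sigma factors, polymerase-associated proteins and nucleoid proteins, 1 was measured by the rule used for the members. The others may be read by probe sets with no gene listed. The measured gene was RPOTmp (AT5G15700), a polymerase of the phage type found in both organelles. It measured 5.80, 6.15 and 6.06 in wild type and 6.27, 6.49 and 6.45 in pam48, without overlap. The difference was 0.40 ± 0.13 (SE, limma adjusted p = 0.259, and 0.162 with the block), so that 0 of 1 was called, against 0.778% of all probe sets. The unadjusted limma p was 0.0199. Of all probe sets, 9.14% were higher in pam48 without overlap, and 6.79% were higher with an unadjusted p under 0.05.

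Organelle transcripts reported to depend on mTERF proteins were also read, although the proteins concerned, MTERF4, MTERF5, MTERF8 and MTERF15, had no measured transcript of their own. Of 7 such genes 6 were measured. Limma called 0 of them, against 0.778% of all probe sets. An unadjusted p under 0.05 was found in 4, all higher in pam48, against 6.79% of all probe sets with such a p and a higher value. The median difference of the 6 was 0.36. The 4 were clpP, psbJ, psbF and psbE, all encoded in the plastid. The psb genes among them belong to the same transcription unit, so the count is not one of independent genes. Whether plastid-encoded transcripts were higher in general was not tested here. The plastid clpP, which encodes a protease subunit and carries introns, measured 12.91, 12.77 and 12.76 in wild type and 13.47, 13.63 and 13.42 in pam48, without overlap. Its difference of 0.69 ± 0.11 (SE, limma adjusted p = 0.0541) was just short of the threshold; the adjusted p was 0.0663 with the block and 0.0348 to 0.0696 over all settings that kept the arrays.

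Of the psbE transcription unit of photosystem II, the target of MTERF5, psbJ measured 11.44, 11.69 and 11.41 in wild type and 11.98, 12.36 and 12.29 in pam48, a difference of 0.70 ± 0.15 (SE, limma adjusted p = 0.114). Its other genes had smaller differences, 0.38 ± 0.11 in psbF, 0.34 ± 0.10 in psbE and 0.29 ± 0.13 in psbL (SE, limma adjusted p = 0.220, 0.223 and 0.406). These genes share a transcript and are not independent. The mitochondrial nad2, the target of MTERF15, lay between 4.78 and 5.22 in wild type and between 4.49 and 4.97 in pam48, a difference of −0.26 ± 0.19 (SE, limma adjusted p = 0.599). By its mean over all arrays nad2 stood at percentile 32.7, among the dim probe sets, where RMA values understate differences. Splicing of nad2 and clpP was not tested, since each was read as the signal of a single probe set.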

How the data were processed

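Leaf RNA was measured on 6 Affymetrix arrays. The deposited values are log2 summaries per probe set made with RMA, according to the submitters' processing notes. Its version, the probe set definition and the build were not given in the sources used here. The log2 scale was read from the values. Of 22810 rows, 64 controls were left out. Probe sets were named through GEO's platform annotation (13513 with a single gene, 503 with several, 8730 with none listed) and the TAIR10.1 gene table, which served only for names and gene order. Sequences of the members were not used here.

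The genotype contrast was fitted by limma 3.58.1 (R 4.3.3) with lmFit and eBayes. Tests were two-sided, with Benjamini-Hochberg adjustment over 22746 probe sets, and the fit was tested on simulated data. There it recovered 53% of the probe sets changed by 1 log2 unit and 94.5% of those changed by 2. A change of 1 log2 unit can thus go uncalled. Members, classes and lists were chosen with earlier results of these data known, and the classes rest on background knowledge. All measured members are named. Values on single arrays are given for all plastid members, members with an unadjusted p under 0.05 or no overlap, and the largest differences of the family and the cluster, and were added for others. Replicate numbers are shared by both genotypes in the labels. Same-numbered arrays deviated together from their genotype means (correlations of 0.53, 0.20 and 0.54), so the numbers were treated as pairs, which rests on the data and on no statement of the labels. Between arrays of unlike number the correlations lay between −0.50 and 0.11. Deviations sum to 0 within a genotype, so these correlations are not independent of each other. The main fit had no block, and a fit with the replicate block was run beside it. The labels call the replicates biological and do not say more. Signal over background was not examined, and the number of arrays limits the precision.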

Additional observations from a re-analysis of the deposited data

How the results depend on the processing

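Of all probe sets, 177 were called (136 higher, 41 lower). Array weights gave 351 (258 and 93), the replicate block 412 (239 and 173) and a threshold of 0.01 gave 8 (8 and 0). It was 1 to 291 (1 to 238 and 0 to 53) when 1 array was left out. The cause was not tested. The mTERF members called were 0 in all of these fits but the replicate block, where they were 2, MTERF10 and AT1G78930, and the block changed no other call among members, targets and RPOTmp. Members at an unadjusted p under 0.05 numbered 4, 7 with array weights and 2 to 5 with 1 array left out. Quantile normalization and the trend and robust settings with all arrays made 177 and 169 calls. clpP was called with quantile normalization, with the trend and robust settings and with array weights (adjusted p between 0.0348 and 0.0433).

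When 1 array was left out, the median difference lay between −0.073 and 0.13 for all members, −0.10 and 0.20 for plastid members, −0.17 and 0.0017 for mitochondrial members and −0.19 and 0.071 for the cluster, so that each spanned 0. Without the dimmest 40% of probe sets, which drops 4 members, the median of the mitochondrial members was 0.026 and that of the cluster 0.094, as fewer loci remain. The sign turned in MTERF11 (AT3G18870) with quantile normalization (−0.024) and median centring (−0.032), in AT5G06810 (−0.055 and −0.054), in MTERF12 (AT4G09620) with median centring (−0.027) and in AT1G62150 with array weights (0.10). When 1 array was left out, differences spanned 0 in MTERF11 (−0.15 to 0.23), MTERF12 (−0.048 to 0.17), AT5G06810 (−0.044 to 0.041), AT1G62150 (−0.17 to 0.18), AT5G07900 (−0.48 to 0.0017) and MTERF22 (−0.013 to 0.18). Of 108 such values 94 kept their sign and their side of the threshold. Alternatives for loci with several probe sets and for probe sets of several genes could not apply, as no member had any. None of the members' probe sets has a name ending that marks shared probes, and sharing itself was not tested. Signal over background, and what it limits, was not examined.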
